A study of Mus musculus with 8 samples.

Results

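The genes described here encode the proteins of the mitochondrial ribosome. They were taken from the deposited feature list as every symbol that starts with Mrpl (large subunit) or Mrps (small subunit) followed by a digit, without the pseudogene symbols ending in -ps. The rule found 77 genes among 27998 features, and uses names only, no measured value. Expression was measured by droplet single-cell RNA sequencing in bone marrow LK cells (lineage-negative and cKit-positive stem and progenitor cells) to which extra LK CD150+ CD48- CD34- cells, a gate enriched for hematopoietic stem cells (HSCs), had been added. All mice were Wildtype and 12 to 14 weeks old, of the C57Bl/6 strain. Mice of the treated groups had been given recombinant mouse IFNα subcutaneously at 50000 IU for each 20 g of body mass, and bone marrow was taken 3, 24 or 72 h later, while control mice had been given 100 µl of PBS. Each group held 4 mice, whose cells carried 4 different hashtag antibodies and were loaded together as 1 library per group. The time point and the library therefore cannot be told apart in any comparison with control, and the 3 comparisons with control share the same control mice.

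The mitochondrial ribosome translates the few proteins that mitochondrial DNA encodes, all of them subunits of the respiratory chain and the ATP synthase. Its RNAs are made in the organelle, but every one of its proteins is encoded in the nucleus, translated in the cytosol and imported. About as many of these proteins descend from bacterial ribosomal proteins as were added later in evolution, and the latter are called mitochondria-specific. HSCs at rest are known for a low translation rate and for relying little on respiration, and mitochondrial translation is needed as they divide and differentiate.

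By annotated role, 27 of the 77 genes encode small subunit and 50 large subunit proteins, where Mrps30 and Mrps18a count as large because their proteins sit in that subunit despite the symbol. Of the 77, 45 were of bacterial descent and 32 mitochondria-specific. Mrps36 is counted by its symbol among the small subunit and mitochondria-specific genes. The genes lie on 17 chromosomes. A coding gene on the same strand overlaps 4 of them, Mrpl53, Mrps24, Mrps34 and Mrps6, whose counts are uncertain for that reason. A gene on the other strand overlaps 35, among them Mrpl33 and Mrpl14, and whether the counting used strand is not given in the sources used here. Mrpl58, a peptidyl-tRNA hydrolase built into the large subunit, is not analysed here under that symbol.

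RefSeq promoters (250 bases before to 50 bases after a start, on GRCm38.p6) matched 68 of the 77 genes with 74 promoters, and 5 short motifs were searched on both strands. The ETS/GABPA core CCGGAAGT was in 16.2% of the 74 promoters and in 3.89% of all 32851 promoters. The NRF1 core GCGCATGC was in 10.8% against 2.71%, and the YY1 core AAGATGGC in 16.2% against 2.75%. The E-box CACGTG was in 9.46% against 7.15%, and the core of the interferon response element, AAANNGAAA, in 9.46% against 10.6%. The 7 promoters with an E-box belonged to only 5 genes, since Mrpl2 has several overlapping promoters that each count. These shares describe letters in a window and say nothing of binding. The 4 promoters printed here were chosen because they hold a motif. They are the first such promoters among the 5 largest rises and then the 5 largest falls at 3 h in the whole compartment. Mrpl52 and Mrps21 are among the rises, and Mrpl49 and Mrpl51 among the falls. Each is written 5′ to 3′ along the gene's own strand, the annotated start follows the first 250 bases, and capitals mark the motifs. Mrpl52 (chr14:54426659-54426958, plus strand) holds an ETS core from base 252. Mrps21 (chr3:95871465-95871764, minus strand) holds an interferon response element core from base 18. Mrpl49 (chr19:6057706-6058005, minus strand) holds a YY1 core from base 267. Mrpl51 (chr6:125191950-125192249, plus strand) holds an interferon response element core from base 92 and an ETS core from base 161. No motif of the 5 was found in the promoters of the other rises, Mrps5, Mrps6 and Mrpl30, or of Mrpl44 and Mrps23, falls that ranked before Mrpl51. These were passed over.

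Mrpl52: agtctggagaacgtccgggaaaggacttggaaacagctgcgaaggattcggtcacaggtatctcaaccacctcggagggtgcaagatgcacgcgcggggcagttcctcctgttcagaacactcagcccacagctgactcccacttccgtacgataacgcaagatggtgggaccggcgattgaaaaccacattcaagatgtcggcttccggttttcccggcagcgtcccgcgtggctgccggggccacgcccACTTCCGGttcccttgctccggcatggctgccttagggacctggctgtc

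Mrps21: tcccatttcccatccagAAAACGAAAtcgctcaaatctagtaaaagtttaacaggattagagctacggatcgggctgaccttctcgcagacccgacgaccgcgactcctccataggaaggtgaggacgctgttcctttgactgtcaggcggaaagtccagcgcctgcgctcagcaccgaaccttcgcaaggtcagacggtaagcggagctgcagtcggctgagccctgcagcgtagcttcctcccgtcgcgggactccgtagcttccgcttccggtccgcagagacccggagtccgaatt

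Mrpl49: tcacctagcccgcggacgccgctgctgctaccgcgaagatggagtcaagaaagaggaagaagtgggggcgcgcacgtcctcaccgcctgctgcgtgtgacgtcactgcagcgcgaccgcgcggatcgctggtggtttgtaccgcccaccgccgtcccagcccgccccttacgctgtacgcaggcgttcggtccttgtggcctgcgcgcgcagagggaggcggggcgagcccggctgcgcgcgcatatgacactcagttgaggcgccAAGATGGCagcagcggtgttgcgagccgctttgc

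Mrpl51: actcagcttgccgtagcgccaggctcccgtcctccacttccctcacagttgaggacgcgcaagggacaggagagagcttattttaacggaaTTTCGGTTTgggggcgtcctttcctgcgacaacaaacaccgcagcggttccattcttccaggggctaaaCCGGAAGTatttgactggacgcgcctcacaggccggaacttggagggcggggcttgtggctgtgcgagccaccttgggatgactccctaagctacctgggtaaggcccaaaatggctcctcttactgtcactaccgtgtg

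After filtering, 2474 control cells, 1661 cells at 3 h, 3462 at 24 h and 2449 at 72 h were kept, and a mouse contributed between 1102706 UMIs (control mouse 4, with 58 cells) and 26446327 UMIs, with no other mouse under 4903401. A UMI (unique molecular identifier) counts 1 captured RNA molecule. The libraries shared 98 of 13186 barcode sequences, 3 of them among the kept cells. Kit, which codes for the cKit of the gate, was at 76.9 to 123 CPM in every mouse, where CPM are a gene's counts scaled per 1000000 UMIs. Markers of mature T cells summed to at most 1.77 CPM, of mature neutrophils to at most 3.37 CPM and of dendritic cells to at most 2.84 CPM, while a B cell list summed to 28.3 to 61.4 CPM. Single mitochondrial ribosomal protein genes had between 79 and 66838 UMIs over the 16 mice.

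The levels in control cells were described first, by cell class. Classes were rebuilt by clustering the control cells without these genes among the variable genes and were named from markers as HSC-like, LMPP-like (lymphoid-primed multipotent progenitor), myeloid progenitor-like, erythroid progenitor-like and MK progenitor-like (megakaryocyte). The HSC-like class joined clusters 2, 10 and 14. Cluster 10, with 28.6% of its control cells, had Jchain, Mzb1 and Cd79a beside Hlf and Ly6a among its 10 most enriched genes. Cluster 14, with 3.00%, had a median of 7192 UMIs per cell. UMIs were summed per mouse and class and scaled to CPM, with control mouse 4 missing where it had fewer than 10 cells. In a sum over cells, fewer cells of a type and less RNA per cell cannot be told apart. Because cells were grouped by their expression, these levels are given as a description with no test.

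Mitochondrial ribosomal protein genes were lowest in the HSC-like and highest in the erythroid progenitor-like class. Of 76 genes with a level, 70 had their lowest class mean in HSC-like cells, and 67 had their highest in erythroid progenitor-like cells. Every control mouse of a class was above every HSC-like value for 71 genes in the erythroid class, while 29.0% of all genes were placed in this way. The number was 61 in the myeloid class (all genes 25.7%), 58 in the LMPP-like class (all genes 21.2%) and 50 in the MK class (all genes 19.3%). In the other direction, none was below HSC-like in the erythroid (all genes 28.0%) or MK class (all genes 12.0%), 2 in the myeloid class (Mrps6 and Mrpl52, all genes 21.4%) and 1 in the LMPP-like class (Mrpl52, all genes 15.1%). The median log2 ratio to HSC-like was 0.50 in LMPP-like, 0.69 in myeloid, 1.11 in erythroid and 0.48 in MK cells, against medians between -0.08 and 0.03 over all genes. The median depth of a control cell moved with this order in part, from 11071 UMIs in HSC-like and 13745 in MK cells to 18052.5 in LMPP-like, 26297 in erythroid and 33847.5 in myeloid cells. Its part in the levels was not tested.

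Mrpl12, whose protein forms the flexible stalk that recruits translation factors, rested at 168 ± 16.5 CPM (SD, n = 4) in HSC-like and 550.5 ± 30.3 CPM (SD, n = 3) in erythroid progenitor-like cells. The other stalk genes had smaller ratios between these classes, with Mrpl10 at 27.6 ± 1.67 and 48.3 ± 3.47 CPM and Mrpl11 at 88.2 ± 7.61 and 151 ± 6.65 CPM. Mrps12, a decoding centre protein, was at 98.1 ± 6.83 and 183 ± 9.45 CPM. The ratio of erythroid to HSC-like means ran from 0.98 for Mrpl24 to 4.13 for Mrps22. Mrpl52 was lower in LMPP-like and myeloid than in HSC-like cells, with 199.7 ± 24.6 CPM in HSC-like, 148 ± 6.24 in LMPP-like, 96.8 ± 5.73 in myeloid, 223 ± 16.6 in MK and 587 ± 20.3 CPM in erythroid cells. Mrps33 was the gene with its highest mean in MK cells, at 261 ± 22.7 CPM against 193 ± 24.4 CPM in HSC-like cells.

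**Figure D1:**
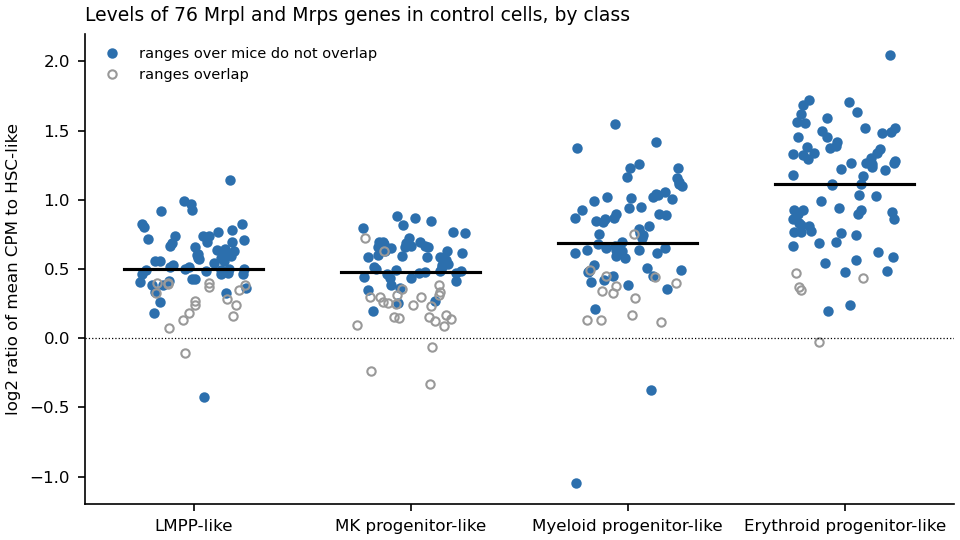
Each point is 1 of 76 mitochondrial ribosomal protein genes, and the vertical axis is the log2 ratio of its mean CPM over control mice in a class to that in HSC-like cells; filled points mark genes whose ranges over mice do not overlap between both classes, and bars are medians. The bars stand at 0.50, 0.48, 0.69 and 1.11 from left to right, and the lowest point, in the myeloid class, is Mrpl52.

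The response to IFNα was then asked for over the whole compartment, that is, over all kept cells of a mouse. UMIs were summed per mouse and compared with edgeR's quasi-likelihood F test over 12042 genes, of which 76 were mitochondrial ribosomal protein genes, with Benjamini-Hochberg adjustment and a threshold of 0.05. At 3 h, 15 of the 76 rose and 16 fell (all genes 19.7% higher and 19.2% lower), shares close to those of genes at large, and library size alone in place of the TMM scaling factors gave 8 higher and 47 lower. At 24 h, 4 rose and 30 fell (all genes 14.5% and 13.8%). At 72 h, 3 rose and 55 fell (all genes 18.9% and 18.5%). None of these changes exceeded 2-fold. The median log2 fold change of the 76 genes was -0.04 at 3 h, -0.10 at 24 h and -0.21 at 72 h, while the median of all tested genes was -0.03, 0.00 and 0.02.

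The direction at 3 h depended on the scaling. Library size alone shifted the median of all genes at 3 h from -0.03 to -0.18, with 13.2% of all genes called higher and 38.5% lower. Taken relative to the median of all genes, the median of the 76 was -0.01 under either scaling. A change of scaling factors shifts all genes nearly alike, so this relative value could hardly differ between scalings. With library size alone, the 24 h split was 4 and 33 (all genes 13.3% and 15.6%) and the 72 h split 3 and 59 (all genes 17.5% and 19.7%). Both scalings nearly coincide at these times, with all-gene medians of 0.00 and -0.01 at 24 h and 0.02 and 0.01 at 72 h, so this comparison could barely move the calls. HSC-like cells, where most of these genes were lowest among the 5 classes, went from 17.5% of control cells to 24.7% at 24 h and 30.4% at 72 h. Extra cells of an HSC gate had been added at sorting, so these percentages also reflect that addition. The part of this shift in the calls was not tested. Fewer genes were called lower within classes, which hold fewer UMIs. The changes were also smaller there. At 72 h the median of the 76 genes relative to that of all genes was -0.22 in the whole compartment. Within classes it lay between -0.18 (erythroid) and -0.01 (HSC-like). The part of the fewer UMIs in the calls was not tested. The 8 genes called higher at 3 h with library size alone were Mrpl30, Mrpl33, Mrpl48, Mrpl52, Mrps18c, Mrps21, Mrps5 and Mrps6, all of them among the 15, and 4 of the 15 had a fitted change below 0. In CPM, which carry the same TMM scaling, all 4 mice of a time point lay above all 4 control mice for 12, 5 and 5 of the 76 genes at 3, 24 and 72 h (all genes 16.2%, 12.7% and 15.2%). All 4 lay below the control mice for 15, 28 and 49 genes (all genes 13.1%, 11.1% and 14.7%). Under this scaling the counts at 3 h were near those of genes at large.

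**Figure D2:**
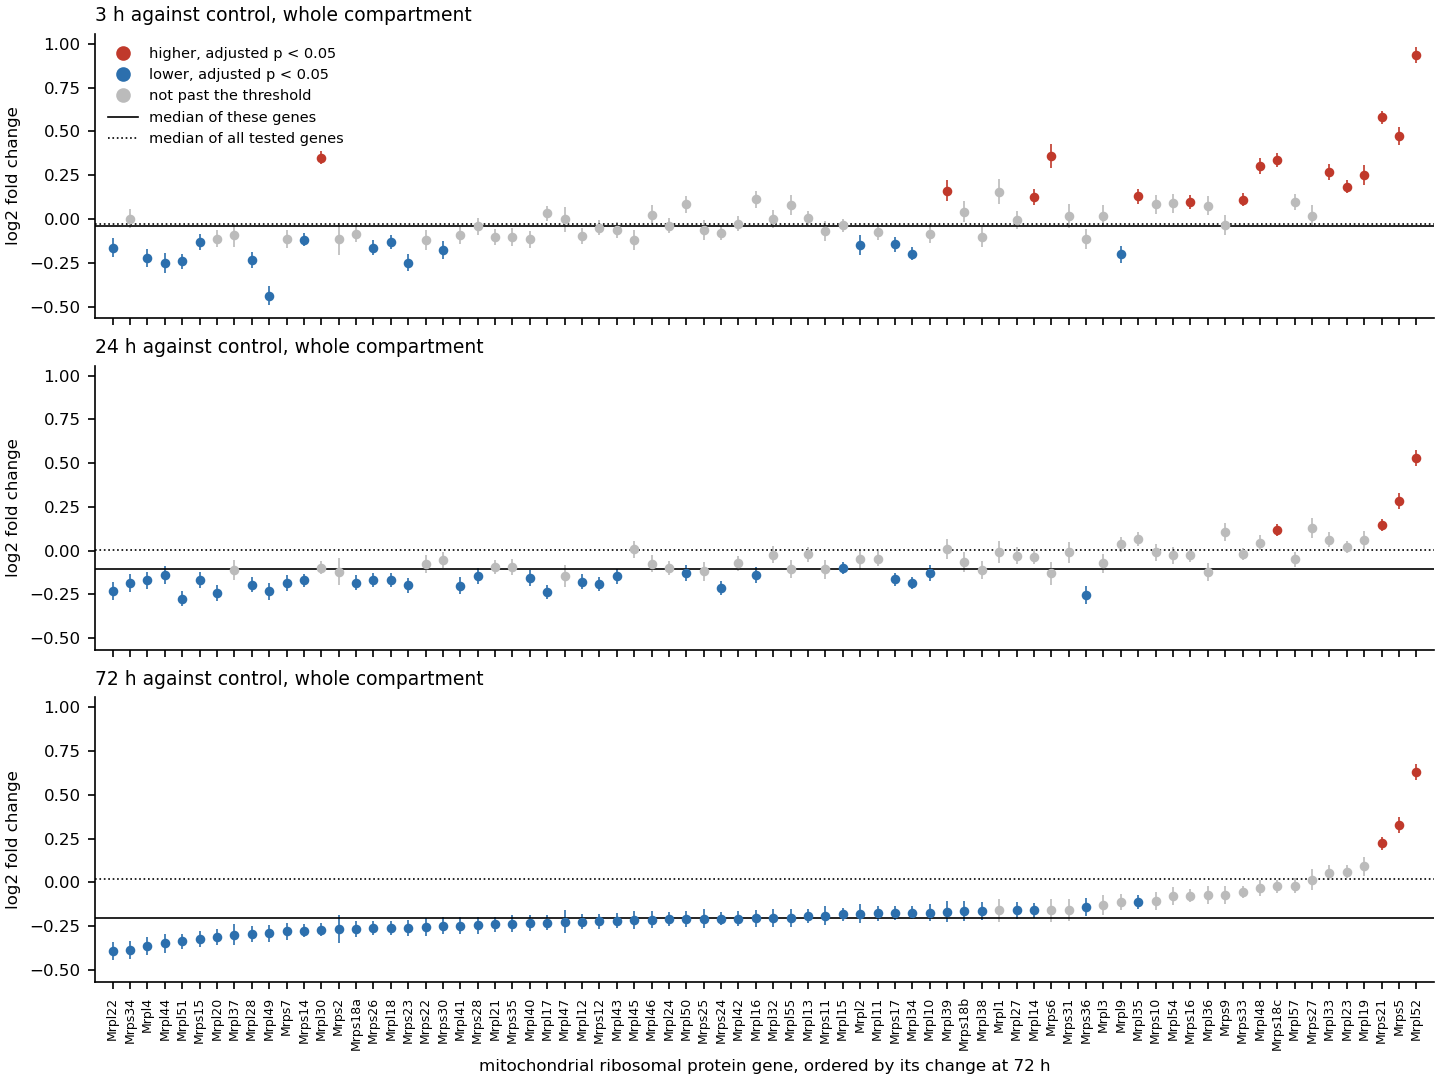
The vertical axis is the log2 fold change against control in the whole compartment with its standard error (bars), for 76 genes on the horizontal axis in the order of their change at 72 h; the 3 panels are 3, 24 and 72 h, with lines at the medians of these genes and of all tested genes. With library size alone in place of TMM, 8 genes would be higher and 47 lower in the 3 h panel (all genes 13.2% and 38.5%). The 72 h panel has 55 lower and 3 higher genes (all genes 18.5% and 18.9%), with Mrpl52 at 0.63.

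Among the rises, Mrpl52 stood first in each comparison with control. The gene (chr14:54426909-54429756, plus strand) encodes a mitochondria-specific protein of the large subunit. It was measured at 197, 189, 210.1 and 221 CPM in control mice 1 to 4, 380.0, 411, 383 and 369.6 CPM at 3 h, 284, 284, 306 and 290.0 CPM at 24 h and 311, 334, 308 and 298 CPM at 72 h. All treated mice were above all control mice, and the 3 h mice were above those of both later times. At 3 h it rose 1.91-fold (log2 fold change 0.94, SE 0.047, edgeR adjusted p = 1.30e-13). It was still higher at 24 h, by 0.53 (edgeR adjusted p = 1.15e-08), and at 72 h, by 0.63 (edgeR adjusted p = 5.98e-10), where values beside an edgeR adjusted p are log2 fold changes, here and for all genes that follow.

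Mrps21 (chr3:95862634-95871519, minus strand) encodes a small subunit protein of bacterial descent. Its levels were 159, 147, 153 and 144 CPM in control, 231, 224, 229.9 and 224 CPM at 3 h, 169, 167, 169.9 and 169 CPM at 24 h and 171, 179, 183 and 177 CPM at 72 h, without overlap between control and any treated group. It rose at 3 h (log2 fold change 0.58, SE 0.036, edgeR adjusted p = 9.01e-12), and was higher at 24 h by 0.15 (edgeR adjusted p = 0.00297) and at 72 h by 0.22 (edgeR adjusted p = 4.37e-05). Mrps21 has one of the shortest transcripts of the list (488 bases), and its change was smaller once a trend over transcript length was taken off, as given with that comparison. Mrps5 (chr2:127587222-127606829, plus strand), whose protein takes part in accurate decoding, was at 85.6, 76.1, 74.7 and 84.4 CPM in control, 106, 106, 112 and 116 CPM at 3 h, 98.4, 96.4, 93.5 and 97.7 CPM at 24 h and 98.0, 100.4, 98.3 and 101 CPM at 72 h. Its groups did not overlap with control either, and it rose by 0.47 (edgeR adjusted p = 5.96e-08) at 3 h, 0.28 (edgeR adjusted p = 8.31e-05) at 24 h and 0.33 (edgeR adjusted p = 1.29e-05) at 72 h. Mrps5 has a long transcript of 4481 bases.

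Other genes were high mainly at 3 h. Mrpl30 (chr1:37890477-37898535, plus strand), a large subunit gene of bacterial descent, was at 242, 243, 248 and 241 CPM in control, 331, 313, 296 and 304 CPM at 3 h, 228, 221, 224 and 239 CPM at 24 h and 195, 209, 205 and 201 CPM at 72 h. It rose at 3 h (log2 fold change 0.35, SE 0.039, edgeR adjusted p = 1.45e-07), and at 72 h was below control in every mouse (log2 fold change -0.27, SE 0.038, edgeR adjusted p = 1.02e-05). Mrps6 (chr16:92058270-92112227, plus strand) was at 45.8, 47.5, 49.7 and 44.4 CPM in control and 55.1, 69.5, 60.7 and 58.5 CPM at 3 h (log2 fold change 0.36, SE 0.070, edgeR adjusted p = 2.47e-04), and at 47.7, 42.3, 41.1 and 42.7 CPM at 24 h. Slc5a3 and another gene model overlap Mrps6 on the same strand, so that its reads may not be its own. Mrps18c rose by 0.34 (edgeR adjusted p = 2.09e-07) at 3 h and 0.12 (edgeR adjusted p = 0.0179) at 24 h. Mrpl33, a small protein of the large subunit, was at 333, 318, 309 and 299 CPM in control, 379, 354, 379 and 417 CPM at 3 h and 324, 321, 348 and 325 CPM at 72 h, with a rise of 0.27 (edgeR adjusted p = 4.08e-05) at 3 h and a value of 0.06 (edgeR adjusted p = 0.330) at 72 h. Mrpl14, where the assembly factor Malsu1 binds the subunit, is a smaller case, with 0.13 (edgeR adjusted p = 0.0344) at 3 h, a change that is below 0 with library size alone or once the length trend is removed. The remaining rises at 3 h (Mrpl19, Mrpl23, Mrpl35, Mrpl39, Mrpl48, Mrps16 and Mrps33) lay between 0.10 and 0.30.

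**Figure D3:**
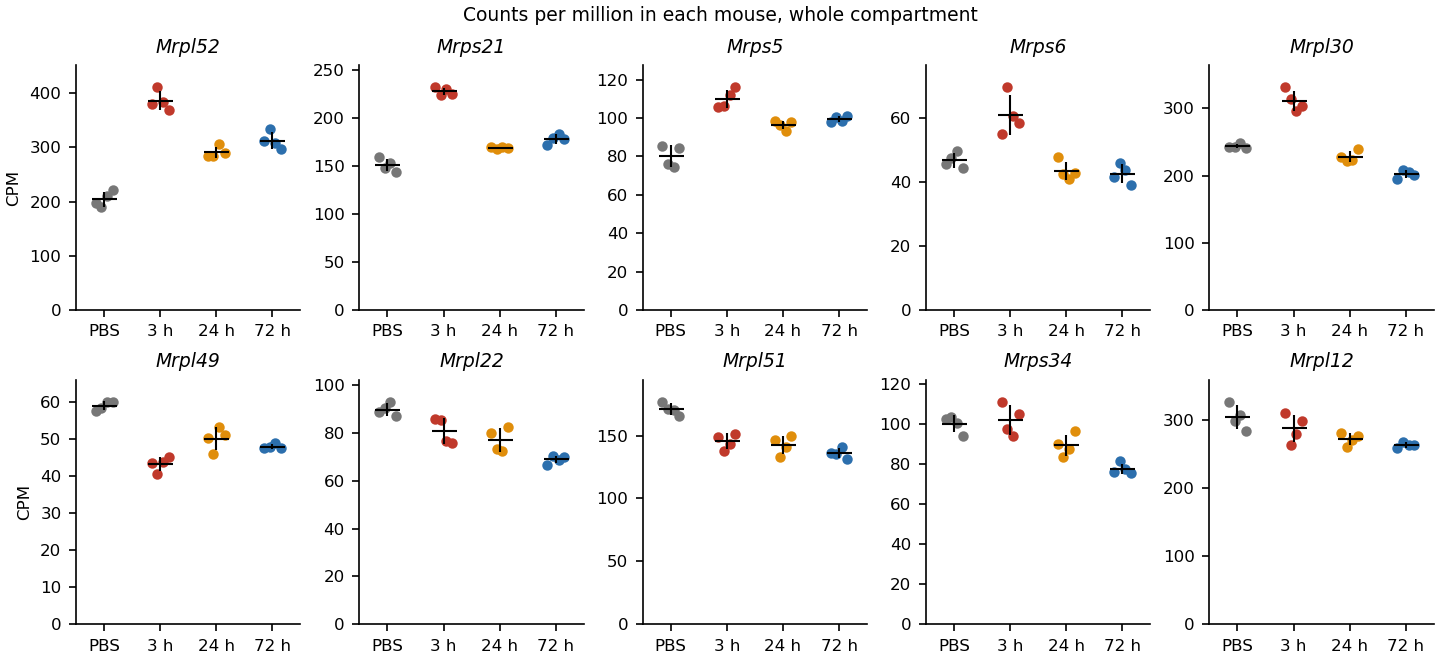
The vertical axis of each panel is CPM in the whole compartment, points are single mice of the PBS control and of 3, 24 and 72 h, and lines give the mean and SD of 4 mice. The 3 h mice of Mrpl52, between 369.6 and 411 CPM, lie above all others, whereas Mrpl49, Mrpl22, Mrpl51 and Mrps34 have 72 h mice below every control mouse.

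Of the 16 genes that fell at 3 h, the 5 largest falls were in Mrpl49, Mrpl44, Mrps23, Mrpl51 and Mrpl28. Mrpl49 (chr19:6053622-6057785, minus strand), mitochondria-specific, was at 57.5, 58.3, 59.9 and 60.0 CPM in control and 43.5, 40.6, 43.8 and 45.2 CPM at 3 h, and then at 50.2, 45.8, 53.3 and 51.0 CPM at 24 h and 47.6, 47.7, 48.9 and 47.6 CPM at 72 h. No treated mouse reached a control value. It fell at 3 h (log2 fold change -0.44, SE 0.056, edgeR adjusted p = 1.32e-06), and its log2 fold changes were -0.23 (edgeR adjusted p = 0.00106) at 24 h and -0.29 (edgeR adjusted p = 1.14e-04) at 72 h. Mrpl44, whose protein has an RNase III-like fold, was at 59.8, 63.6, 62.1 and 56.6 CPM in control and 55.1, 47.5, 49.7 and 54.5 CPM at 3 h (log2 fold change -0.25, SE 0.058, edgeR adjusted p = 0.00139). Mrpl51 (chr6:125191801-125196269, plus strand) was at 177, 171, 170.2 and 165 CPM in control, 149, 138, 143 and 152 CPM at 3 h, 146, 133, 141 and 149 CPM at 24 h and 136, 136, 141 and 132 CPM at 72 h, below every control mouse at each time. Its log2 fold changes were -0.24 (edgeR adjusted p = 1.27e-04), -0.27 (edgeR adjusted p = 3.77e-05) and -0.34 (edgeR adjusted p = 2.18e-06). Mrps23 fell by 0.25 (edgeR adjusted p = 2.31e-04) and Mrpl28 by 0.23 (edgeR adjusted p = 3.07e-04) at 3 h.

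At 24 h, the largest falls after Mrpl51 were in Mrps36, Mrpl20, Mrpl17 and Mrpl49. Mrps36 is included by its symbol, and its protein is known as a subunit of the oxoglutarate dehydrogenase complex. The gene was at 119, 106, 119 and 134 CPM in control and 101, 93.5, 100.5 and 97.8 CPM at 24 h (log2 fold change -0.25, SE 0.051, edgeR adjusted p = 8.03e-04). Mrpl20 fell by 0.24 (edgeR adjusted p = 4.05e-04) and Mrpl17 by 0.23 (edgeR adjusted p = 1.88e-04), with all 24 h mice below all control mice. For Mrpl17 the 3 h mice overlapped with control, at 191, 186, 178 and 182 CPM against 193, 177, 175 and 165 CPM.

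At 72 h, the falls were the most numerous and the largest were in Mrpl22, Mrps34, Mrpl4, Mrpl44 and Mrpl51. Mrpl22 (chr11:58171661-58179565, plus strand), a protein of the exit tunnel, was at 88.7, 90.4, 93.2 and 87.0 CPM in control, 85.8, 85.7, 76.9 and 75.7 CPM at 3 h, 80.0, 73.5, 72.4 and 82.4 CPM at 24 h and 66.8, 70.3, 68.8 and 70.2 CPM at 72 h (log2 fold change -0.39, SE 0.051, edgeR adjusted p = 4.20e-06). The 3 and 24 h mice overlapped below the control mice, and all 72 h mice lay below every other mouse. Mrps34 (chr17:24895116-24897502, plus strand), which keeps the small subunit stable, was at 102, 104, 100.1 and 94.0 CPM in control, 111, 97.2, 94.0 and 105 CPM at 3 h, 89.6, 83.5, 87.2 and 96.3 CPM at 24 h and 75.9, 81.1, 77.4 and 75.6 CPM at 72 h (log2 fold change -0.39, SE 0.053, edgeR adjusted p = 6.83e-06). Nme3 overlaps it on the same strand. Mrpl4, another exit tunnel protein, fell at 72 h by 0.36 (edgeR adjusted p = 5.62e-06) and Mrpl44 by 0.35 (edgeR adjusted p = 3.00e-05).

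Between the treated groups, 3 genes stood higher and 23 lower 24 h after IFNα than 3 h after it (all genes 12.3% higher and 16.3% lower), and with library size alone 21 were higher and 6 lower, when 31.2% of all genes were higher and 9.73% lower. The median of the 76 genes relative to that of all genes was -0.08 under either scaling, a value that a change of scaling can hardly move. The 3 higher genes were Mrpl9 (0.24, edgeR adjusted p = 3.94e-04), Mrpl49 (0.21, edgeR adjusted p = 0.00605) and Mrps9 (0.14, edgeR adjusted p = 0.0482). Mrpl9 had been at 59.7, 62.8, 64.2 and 65.4 CPM at 3 h and was at 72.3, 73.6, 74.7 and 77.2 CPM at 24 h, against 71.3, 75.8, 72.0 and 67.9 CPM in control. The largest falls were Mrps6 (-0.49, edgeR adjusted p = 5.11e-06), Mrpl30 (-0.45, edgeR adjusted p = 2.24e-09), Mrps21 (-0.43, edgeR adjusted p = 1.22e-09), Mrpl52 (-0.41, edgeR adjusted p = 1.85e-07) and Mrpl17 (-0.27, edgeR adjusted p = 3.08e-05).

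At 72 h against 24 h, no gene was higher and 18 were lower (all genes 3.70% higher and 5.38% lower). By edgeR, 3 were higher at an unadjusted p under 0.05, and DESeq2 called none higher. Shares of all genes are not given for counts at an unadjusted p or by DESeq2, here or below. The largest falls were in Mrpl45 (-0.22, edgeR adjusted p = 0.00523), which ties the exit tunnel to the inner membrane, Mrpl44 (-0.21, edgeR adjusted p = 0.0119), Mrps34 (-0.20, edgeR adjusted p = 0.0133, but 0.026 in cells thinned to 2000 UMIs), Mrpl4 (-0.19, edgeR adjusted p = 0.0103) and Mrps30 (-0.19, edgeR adjusted p = 0.00886). Mrpl45 was at 55.2, 51.2, 51.8 and 52.8 CPM at 24 h and 45.2, 46.1, 46.7 and 42.5 CPM at 72 h, with control at 53.8, 50.6, 54.0 and 47.0 CPM. The count of 18 was 11 without mouse 1 and 8 without mouse 4 of 24 h, and 8 without mouse 1 and 10 without mouse 2 of 72 h.

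The lower calls at 24 and 72 h were spread over both subunits. Of all genes, 19.7% rose and 19.2% fell at 3 h, 14.5% and 13.8% at 24 h, and 18.9% and 18.5% at 72 h. With library size alone 13.2% rose and 38.5% fell at 3 h. Of 27 small subunit genes, 3 rose and 11 fell at 24 h (median -0.12), and 2 rose and 17 fell at 72 h (median -0.19). Of 49 tested large subunit genes, 1 rose and 19 fell at 24 h (median -0.10), and 1 rose and 38 fell at 72 h (median -0.21). At 3 h the small subunit had 6 higher and 5 lower genes and the large subunit 9 and 11, near the shares of all genes. With library size alone these counts became 4 and 17, and 4 and 30. By descent, 12 of 31 mitochondria-specific genes fell at 24 h and 24 at 72 h, against 18 and 31 of 45 genes of bacterial descent, with 1 and 1 against 3 and 2 rises. At 3 h, 4 mitochondria-specific genes rose and 6 fell, and 11 and 10 of bacterial descent, which became 2 and 19, and 6 and 28, with library size alone. No difference between these groups of genes was tested.

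Each of the 3 stalk genes fell at 72 h, with log2 fold changes of -0.22 (edgeR adjusted p = 5.04e-04) for Mrpl12, -0.18 (edgeR adjusted p = 0.00325) for Mrpl11 and -0.17 (edgeR adjusted p = 0.00821) for Mrpl10, whose value was 0.117 in cells thinned to 2000 UMIs. At 3 h their log2 fold changes were -0.10 (edgeR adjusted p = 0.105), -0.07 (edgeR adjusted p = 0.213) and -0.08 (edgeR adjusted p = 0.276), and all 3 were called lower with library size alone. Mrps12 had log2 fold changes of -0.19 (edgeR adjusted p = 0.00122) at 24 h and -0.22 (edgeR adjusted p = 2.47e-04) at 72 h. Mrpl3, near the catalytic centre, was at 66.3, 68.9, 68.1 and 67.0 CPM in control and 61.1, 59.3, 62.9 and 64.7 CPM at 72 h, and passed in no comparison with control (log2 fold change at 72 h -0.13, edgeR adjusted p = 0.0853).

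Mrps18a, Mrps18b and Mrps18c resemble the same bacterial protein, of which Mrps18c is counted as the counterpart and the other two as mitochondria-specific, and their proteins occupy different places in the ribosome. Mrps18a was at 117, 112, 108 and 98.3 CPM in control and 91.6, 91.4, 96.3 and 90.2 CPM at 72 h (log2 fold change -0.27, SE 0.045, edgeR adjusted p = 9.26e-05). Mrps18b was at 82.9, 84.0, 81.4 and 81.8 CPM in control and 77.1, 71.9, 77.9 and 67.7 CPM at 72 h (log2 fold change -0.16, SE 0.056, edgeR adjusted p = 0.0267). Mrps18c was at 135, 127, 128 and 136 CPM in control, 168, 163, 163 and 166 CPM at 3 h and 127, 132, 129 and 128 CPM at 72 h. At 3 h the log2 fold changes of Mrps18a and Mrps18b were -0.08 (edgeR adjusted p = 0.172) and 0.04 (edgeR adjusted p = 0.628), and the differences between the 3 genes were not tested.

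Mrpl53 was the gene too low to be tested, with 79 UMIs in all. It was measured at 0.155, 0.170, 0.106 and 0 CPM in control, 1.31, 0.872, 0.632 and 1.19 CPM at 3 h, 0.441, 0.369, 0.605 and 0.463 CPM at 24 h and 0.148, 0.112, 0.536 and 0.583 CPM at 72 h. The 3 h mice were the highest. Gm42688 overlaps the gene on the same strand, so that the low count may not be the gene's level.

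The same question was asked within each cell class, over sums per mouse and class of the same mice. With the median of all genes taken off, the median log2 fold change of the 76 genes at 3 h was 0.15 in HSC-like, 0.08 in LMPP-like, 0.14 in myeloid, -0.03 in erythroid and 0.09 in MK cells. With library size alone it was 0.15, 0.08, 0.13, -0.03 and 0.09. This is no separate check, since scaling shifts all genes of a class nearly alike. With TMM, the same medians at 24 h were 0.05, -0.02, -0.03, -0.14 and -0.03, against -0.11 in the whole compartment. At 72 h they were -0.01, -0.07, -0.11, -0.18 and -0.11, against -0.22 in the whole compartment. CPM were here scaled within each class, and so differ from the values above, which were scaled over all classes of the control mice. In the HSC-like class (9910 genes tested), 13 of the 76 genes rose and 3 fell at 3 h (all genes 12.7% and 7.83%, library size alone 6 and 8), 4 rose and none fell at 24 h (all genes 3.81% and 1.63%), and 4 rose and none fell at 72 h (all genes 3.27% and 1.83%), where library size alone gave 4 and 1 at 24 h and 4 and 3 at 72 h. Of all genes in this class, library size alone called 8.19% higher and 24.0% lower at 3 h. The shares were 3.14% and 2.26% at 24 h, and 2.50% and 3.68% at 72 h. At an unadjusted edgeR p under 0.05, 5 of the 76 genes were lower at 24 h and 8 at 72 h, and DESeq2 called 0 lower at both times. These counts have no share of all genes at the same threshold beside them. At 3 h DESeq2 called 10 higher and 0 lower. The 16 calls at 3 h were 10 without control mouse 3, and the 4 calls at 24 h were 2 without control mouse 2.

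In the LMPP-like class (9358 genes), 11 genes rose and none fell at 3 h (all genes 10.2% and 5.24%), with 1 lower at an unadjusted edgeR p under 0.05 and 0 by DESeq2. Library size alone gave 6 higher and 8 lower (all genes 7.47% and 14.7%). There was 1 rise and 1 fall at 24 h (all genes 4.05% and 1.94%), and 4 rises and 2 falls at 72 h (all genes 3.68% and 1.62%). Library size alone turned the 72 h counts into 4 and 7 (all genes 2.80% and 3.59%). In the MK progenitor-like class (8901 genes), 8 rose and none fell at 3 h (all genes 8.49% and 2.29%), 2 rose and none fell at 24 h (all genes 2.91% and 0.876%), and 4 rose and 3 fell at 72 h (all genes 2.94% and 1.20%). At an unadjusted edgeR p under 0.05, 2 were lower at 3 h and 4 at 24 h, with 0 by DESeq2. Library size alone gave 5 higher and 5 lower genes 3 h after IFNα (all genes 6.10% and 10.8%) and 2 and 3 genes after 72 h (all genes 2.30% and 2.20%). The 8 calls at 3 h were 5 without control mouse 2. The 7 calls at 72 h were 2 without mouse 1 of 72 h, 4 without control mouse 1 and 3 without control mouse 2 or 3.

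In the myeloid progenitor-like class (9727 genes), 23 genes rose and 2 fell at 3 h (all genes 13.8% and 10.9%). Library size alone gave 8 higher and 12 lower (all genes 9.86% and 25.7%). At 24 h 6 rose and 8 fell (all genes 8.99% and 6.71%), and library size alone gave 5 and 17 (all genes 7.001% and 11.06%). At 72 h 5 rose and 14 fell (all genes 8.14% and 7.16%), and library size alone gave 4 and 28 (all genes 5.94% and 10.99%). With DESeq2 the 3 h call was 21 higher and 0 lower genes, the 24 h call 5 and 2, and the 72 h call 4 and 6. The 14 calls at 24 h were 8 without mouse 2 of 24 h, 7 without control mouse 1 and 9 without control mouse 3. The 19 calls at 72 h were 11 and 12 without mouse 2 and mouse 4 of 72 h, and 10 and 12 without control mouse 1 and control mouse 3. The makeup of this class moved with time, since cluster 6 held 26.0% of its control cells and 7.98%, 9.21% and 10.1% at 3, 24 and 72 h. Within cluster 5 alone, 16 genes were called at 3 h and 7 at 24 h, counts that were not set beside a share of all genes. This cluster was the most common in the treated groups, with 59.7%, 56.6% and 51.5% of the class at 3, 24 and 72 h. In control it held 36.3%, and cluster 4 held 37.7%.

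In the erythroid progenitor-like class (8545 genes), 7 genes rose and 8 fell at 3 h (all genes 9.67% and 4.03%). Library size alone gave 5 higher and 37 lower (all genes 6.73% and 18.2%). At 24 h 1 rose and 7 fell (all genes 5.47% and 3.77%), and library size alone gave 1 and 12 (all genes 4.58% and 5.22%). At 72 h 4 rose and 7 fell (all genes 3.50% and 1.86%), and library size alone gave 2 and 21 (all genes 2.66% and 5.03%). The 15 calls at 3 h were 9 without control mouse 3. The 8 calls at 24 h were 1 without mouse 2 of 24 h or control mouse 3, 4 without mouse 4 of 24 h and 2 without control mouse 1. The 11 calls at 72 h were 7 without mouse 4 of 24 h, 4, 2, 17 and 3 without mice 1 to 4 of 72 h, and 2 and 3 without control mouse 1 and control mouse 3. Cluster 11, with haemoglobin genes and 52005 UMIs per cell, held 34.4% of the class in control and between 23.1% and 26.9% later. Within the most common cluster alone 6, 1 and 5 genes were called at 3, 24 and 72 h, again without a share of all genes beside them.

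Mrpl52 was the largest rise in each class and at each time. In HSC-like cells it was at 235, 199, 229.8 and 183 CPM in control and 409, 383, 389 and 431 CPM at 3 h, with a log2 fold change of 0.87 (SE 0.068, edgeR adjusted p = 1.41e-12). In erythroid cells it was at 508, 518 and 541 CPM in 3 control mice and 1030.3, 864, 1004 and 922 CPM at 3 h, with 0.87 (SE 0.065, edgeR adjusted p = 3.26e-12). The myeloid change at 3 h, 1.02 (SE 0.074, edgeR adjusted p = 4.35e-13), was the 1 change of a mitochondrial ribosomal protein gene above 2-fold in any class. The 72 h values, again log2 fold changes, were 0.60 in HSC-like, 0.55 in LMPP-like, 0.59 in myeloid, 0.52 in erythroid and 0.49 in MK cells.

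At 3 h, Mrpl30, Mrpl33, Mrps18c, Mrps21 and Mrps5 were also called higher in each of the 5 classes. With library size alone, Mrpl30 was not called in myeloid cells, Mrps18c not in erythroid cells and Mrps5 not in MK cells. Mrps21 had log2 fold changes at 3 h of 0.81 in HSC-like, 0.71 in LMPP-like, 0.67 in myeloid, 0.59 in erythroid and 0.75 in MK cells. Mrpl33, not called over the whole compartment at 72 h, was called higher in each class at that time, with 0.42 (SE 0.067, edgeR adjusted p = 3.26e-05) in HSC-like and 0.27 (SE 0.075, edgeR adjusted p = 0.0291) in erythroid cells, though not in erythroid cells with library size alone. Beside Mrpl33, Mrpl52, Mrps21 and Mrps5 were called in each class at 72 h, of which library size alone did not call Mrps5 in erythroid cells or Mrps21 and Mrps5 in MK cells.

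Falls were called in single classes or in a few. Mrpl49 fell at 3 h in HSC-like cells, from 37.8, 43.9, 45.0 and 44.0 CPM to 28.0, 21.8, 36.6 and 31.5 CPM (-0.46, SE 0.16, edgeR adjusted p = 0.0390). It also fell in myeloid cells (-0.28, SE 0.089, edgeR adjusted p = 0.0187) and in erythroid cells (-0.64, SE 0.15, edgeR adjusted p = 0.00339). DESeq2 called 0 of the 76 genes lower at 3 h in HSC-like or myeloid cells, so it called neither of those falls. In erythroid cells it called 7 genes lower. The falls of largest size elsewhere were Mrpl17 at 24 h in LMPP-like cells (-0.35, SE 0.082, edgeR adjusted p = 0.00476), Mrpl51 at 24 h in myeloid cells (-0.29, SE 0.051, edgeR adjusted p = 9.60e-05) and Mrps36 at 24 h in erythroid cells (-0.36, SE 0.098, edgeR adjusted p = 0.0167). At 72 h they were Mrpl22 in LMPP-like cells (-0.44, SE 0.11, edgeR adjusted p = 0.00713, but 0.044 in cells thinned to 2000 UMIs), Mrps34 in myeloid (-0.29, SE 0.062, edgeR adjusted p = 9.20e-04) and MK cells (-0.47, SE 0.13, edgeR adjusted p = 0.0283), and Mrpl47 in erythroid cells (-0.51, SE 0.14, edgeR adjusted p = 0.0258). Mrpl12, which was lower over the whole compartment at 72 h, was lower in erythroid cells at each time, with -0.25 (SE 0.071, edgeR adjusted p = 0.0158), -0.22 (SE 0.064, edgeR adjusted p = 0.0276) and -0.22 (SE 0.066, edgeR adjusted p = 0.0442) at 3, 24 and 72 h, and higher in myeloid cells at 3 h by 0.15 (SE 0.056, edgeR adjusted p = 0.0488), a call that library size alone did not make.

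Whether the change at 3 h differed between classes was tested as an interaction against HSC-like cells, with the mouse as a block, over 10753 genes. In erythroid cells 5 of 76 genes differed (all genes 2.49%), all with a lower change than in HSC-like cells. Mrpl20 was at 134, 137, 135 and 109.9 CPM in HSC-like control cells and 148, 162, 154 and 159 CPM at 3 h, and in erythroid cells at 378, 313 and 353 and 370.0, 253, 228 and 224 CPM. HSC-like cells thus had a log2 fold change of 0.21 and erythroid cells one of -0.40, and the difference was -0.65 (SE 0.13, edgeR adjusted p = 9.47e-04). The differences were -0.48 (SE 0.12, edgeR adjusted p = 0.0173) for Mrpl54, -0.52 (SE 0.14, edgeR adjusted p = 0.0202) for Mrpl35, -0.56 (SE 0.16, edgeR adjusted p = 0.0422) for Mrpl16 and -0.40 (SE 0.12, edgeR adjusted p = 0.0457) for Mrps24, which Urgcp overlaps on the same strand. The median difference was -0.17 over the 76 genes and -0.04 over all genes.

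In myeloid cells 4 genes differed (all genes 4.07%), a share close to that of genes at large. Mrpl14 was at 118, 118, 113 and 103 CPM in HSC-like control cells and 163, 155, 150.3 and 142 CPM at 3 h, against 140.2, 129.8, 133 and 88.2 and 146, 129.9, 125 and 144 CPM in myeloid cells, with a difference of -0.42 (SE 0.11, edgeR adjusted p = 0.0101). The others were Mrpl51, -0.40 (SE 0.11, edgeR adjusted p = 0.0256), Mrpl30, -0.33 (SE 0.094, edgeR adjusted p = 0.0283), and Mrpl41, -0.44 (SE 0.13, edgeR adjusted p = 0.0428). None of the 4 remained with library size alone and 1 with labels transferred without correction, while erythroid cells had 5 and 6. The 4 myeloid differences became 0 without mouse 3 of 3 h, control mouse 1 or control mouse 3, 1 without control mouse 2 or 4, mouse 1, 2 or 3 of 24 h or mouse 1 of 72 h, and 2 without mouse 4 of 24 h. The 5 erythroid differences became 1 without control mouse 3, 2 without control mouse 1, 3 without mouse 4 of 24 h, 8 without mouse 1 of 24 h or control mouse 4, 9 without mouse 2 of 24 h, 10 without mouse 3 of 3 h, 11 without mouse 1 or 4 of 3 h, 12 without control mouse 2, 13 without mouse 2 of 3 h or mouse 3 of 72 h, and 14 without mouse 3 of 24 h or mouse 1 of 72 h. No gene differed between LMPP-like or MK cells and HSC-like cells (all genes 0.446% and 0.0465%), where edgeR gave 4 and 6 genes at an unadjusted p under 0.05 and DESeq2 was not run.

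**Figure D4:**
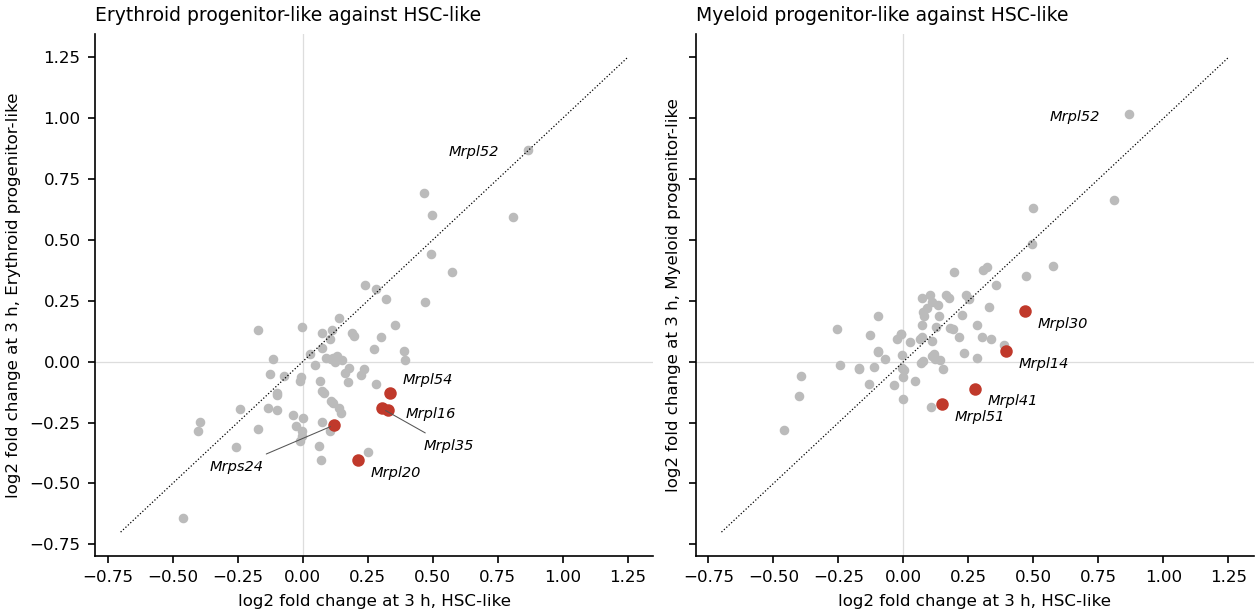
Each point is 1 of 76 genes, with its log2 fold change at 3 h against control in HSC-like cells on the horizontal axis and in erythroid (left) or myeloid (right) progenitor-like cells on the vertical axis; the dotted line marks equal changes. Red points are the 5 and 4 genes whose change differed between both classes, all below the line; with library size alone the 4 myeloid differences were not called.

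The summed UMIs of the 77 genes were expressed as a share of all UMIs of a mouse. Over the whole compartment the share was 0.980, 0.934, 0.944 and 0.939% in control mice, 0.899, 0.864, 0.867 and 0.893% at 3 h, 0.906, 0.874, 0.889 and 0.899% at 24 h and 0.854, 0.859, 0.857 and 0.838% at 72 h. No treated mouse reached a control value, and the ratios of means to control were 0.928, 0.940 and 0.898. The makeup of the compartment moved with this. Most of the genes were lowest, among the 5 classes, in HSC-like cells. These were 17.5% of control cells and 33.7%, 24.7% and 30.4% at 3, 24 and 72 h. Myeloid cells went from 29.5% to 15.8%, 19.8% and 15.3%. Markers moved in the same direction. An HSC list (8 genes) summed to 183 to 255.7 CPM in control and 361 to 479 CPM at 3 h. It summed to 284 to 356 CPM at 24 h and 256.3 to 282 CPM at 72 h, only just above control. A myeloid list (11 genes) summed to 13642 to 18782 CPM in control and 7055 to 10510.3 CPM at 3 h. It was at 8773 to 11264 CPM at 24 h and 7632 to 9788 CPM at 72 h. These lists also named the classes, so they are no separate check. Extra cells of an HSC gate had been added at sorting, so the cell fractions and marker sums also reflect that addition. The part of the makeup, or of the added cells, in the share was not tested. Over the 5 classes together, without control mouse 4, the ratios were 0.917, 0.931 and 0.889, and with these classes weighted as in control they were 0.971 at 3 h, where the groups overlapped, 0.955 at 24 h and 0.924 at 72 h. With cytosolic ribosomal protein and mitochondrially encoded genes left out of the total, the means were 1.39% in control and 1.36%, 1.35% and 1.32% at 3, 24 and 72 h, and the 3 h mice, at 1.34% to 1.38%, overlapped with the control mice, at 1.37% to 1.43%.

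Within HSC-like cells the share was 0.741, 0.704, 0.712 and 0.652% in control, 0.7104, 0.691, 0.709 and 0.709% at 3 h, 0.731, 0.733, 0.740 and 0.725% at 24 h and 0.711, 0.711, 0.697 and 0.687% at 72 h, and each treated group overlapped with control. In myeloid cells the control mean of 0.962% stood beside 0.969%, 0.929% and 0.899% at 3, 24 and 72 h, without overlap at 24 and 72 h. In erythroid cells the mean was 1.26% in 3 control mice and 1.13%, 1.15% and 1.12% later, with overlap at 3 h. In LMPP-like cells it was 0.881% and then 0.867%, 0.848% and 0.830%, without overlap at 72 h, and in MK cells 0.900% and then 0.858%, 0.877% and 0.836%, with overlap at 24 h. These patterns depended on the total. With cytosolic ribosomal protein and mitochondrially encoded genes left out of it, the myeloid mice lay at 1.34% to 1.41% in control, all below the 3 h mice at 1.42% to 1.47%, and overlapped with those of 24 and 72 h. In LMPP-like cells the 72 h mice, at 1.27% to 1.33%, then overlapped with the control mice, at 1.31% to 1.39%. In erythroid cells the groups did not overlap at 24 h alone, and in MK cells at 72 h alone, while HSC-like cells overlapped at each time.

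**Figure D5:**
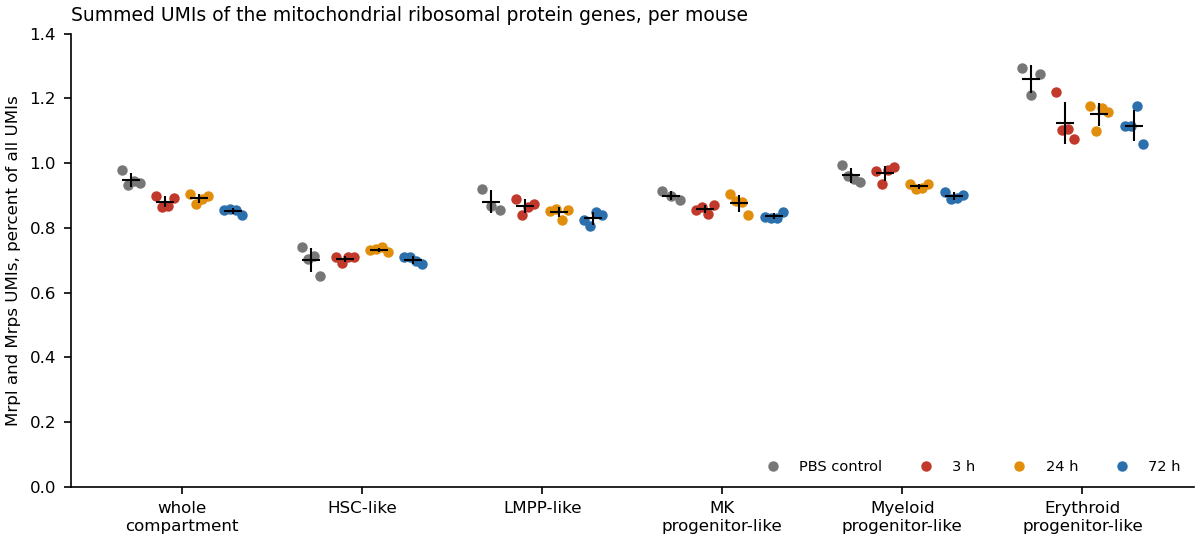
The vertical axis is the summed UMIs of the 77 genes as a percent of all UMIs, points are mice of the PBS control and of 3, 24 and 72 h, and lines give mean and SD. The HSC-like group means lie between 0.701% and 0.732% while every treated mouse of the whole compartment lies below the lowest control mouse.

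Other genes of the same pathway were described from lists, over the whole compartment. For every list that follows, the shares of all genes were 19.7% higher and 19.2% lower at 3 h. They were 14.5% and 13.8% at 24 h, and 18.9% and 18.5% at 72 h. With library size alone they were 13.2% and 38.5% at 3 h. Of 5 mitoribosome proteins with other symbols, 1 rose and 2 fell at 3 h, 2 fell at 24 h and 3 at 72 h. Dap3, a GTP-binding small subunit protein, had log2 fold changes of -0.23 (edgeR adjusted p = 1.42e-04) at 3 h and -0.15 (edgeR adjusted p = 0.00402) at 72 h, and Aurkaip1 -0.13 (edgeR adjusted p = 0.00604) and -0.33 (edgeR adjusted p = 3.26e-07). Of 10 translation factors, 2 rose and 2 fell at 3 h, 2 fell at 24 h, and 1 rose and 3 fell at 72 h. Tufm, the elongation factor that brings aminoacyl-tRNAs, fell at 3, 24 and 72 h with log2 fold changes of -0.29 (edgeR adjusted p = 1.60e-04), -0.24 (edgeR adjusted p = 4.93e-04) and -0.44 (edgeR adjusted p = 5.36e-07), while Mtif2, the initiation factor, was higher at 3 h by 0.30 (edgeR adjusted p = 0.00113) and at 72 h by 0.31 (edgeR adjusted p = 3.42e-04).

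Of 23 assembly and rRNA modification genes, 1 rose and 7 fell at 3 h, 1 rose and 1 fell at 24 h, and 2 rose and 3 fell at 72 h. Ybey, an rRNA processing nuclease, rose at each time, by log2 fold changes of 1.19 (edgeR adjusted p = 1.68e-06), 0.72 (edgeR adjusted p = 3.46e-04) and 0.68 (edgeR adjusted p = 7.99e-04) at 3, 24 and 72 h, whereas Mpv17l2, an assembly factor of the large subunit, had log2 fold changes of -0.33 (edgeR adjusted p = 6.84e-04) at 3 h and -0.16 (edgeR adjusted p = 0.0487) at 72 h. Malsu1 fell at 72 h with a log2 fold change of -0.37 (edgeR adjusted p = 2.22e-05). Of 8 genes of mitochondrial DNA transcription and mRNA stability, 2 rose and 1 fell at 3 h, 1 and 1 at 24 h and 1 rose at 72 h. Slirp, which stabilises mitochondrial mRNAs, rose at each time, by log2 fold changes of 1.22 (edgeR adjusted p = 4.16e-15), 0.51 (edgeR adjusted p = 6.00e-08) and 0.46 (edgeR adjusted p = 3.26e-07). Of 3 genes of membrane insertion, Cox18 rose with a log2 fold change of 0.68 (edgeR adjusted p = 2.67e-07) and Oxa1l fell with -0.38 (edgeR adjusted p = 5.23e-04) at 3 h. Of 20 mitochondrial aminoacyl-tRNA synthetases, 2 rose and 1 fell at 3 h, 2 and 2 at 24 h and 1 and 2 at 72 h, with Lars2 falling at each time, by log2 fold changes of -0.53 (edgeR adjusted p = 5.29e-07), -0.77 (edgeR adjusted p = 8.33e-10) and -0.86 (edgeR adjusted p = 2.68e-10).

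The 13 mitochondrially encoded mRNAs, the templates of this ribosome, gave 10 rises at 3 h, 9 at 24 h and 11 at 72 h, but 5 rises and 3 falls at 3 h with library size alone. The first by size at 3 h was mt-Nd3, with log2 fold changes of 1.66 (edgeR adjusted p = 4.52e-17), 0.90 (edgeR adjusted p = 1.43e-11) and 1.17 (edgeR adjusted p = 1.44e-13). The cells had been filtered on these same genes, at 5% of UMIs. Of 82 nuclear genes of the respiratory chain, 34 rose and 30 fell at 3 h, 22 and 23 at 24 h and 20 and 40 at 72 h, with medians of 0.02, 0.00 and -0.07 and a split of 28 and 42 at 3 h with library size alone. Of 76 cytosolic ribosomal protein genes, 48 rose and 17 fell at 3 h, 40 and 19 at 24 h and 46 and 19 at 72 h, with medians of 0.20, 0.07 and 0.12, where library size alone gave 39 and 31 at 3 h. The mitochondrial list thus had its median below, and the cytosolic list above, the median of all genes at 24 and 72 h. Of the smaller lists, library size alone gave 1 rise and 11 falls at 3 h among the assembly genes, 2 and 8 among the synthetases, 1 and 3 among the transcription genes, 1 and 2 among the insertion genes, 5 falls among the translation factors and 3 among the proteins with other symbols.

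Transcript length was looked at because these genes are short, with a median longest transcript of 1866.5 bases against 3258 bases over all genes with a length. Across the 76 genes, which are not independent replicates and share the libraries, Spearman's rho of log2 fold change and length was 0.07 at 3 h, 0.21 at 24 h and 0.03 at 72 h, and -0.01, -0.01 and 0.11 across all genes. A smooth trend over length, fitted on all genes, was taken off. Mrps21 went from 0.58 to 0.22 at 3 h, from 0.15 to 0.0034 at 24 h and from 0.22 to 0.04 at 72 h, whereas Mrpl52 went from 0.94 to 0.84 and Mrps5 from 0.47 to 0.49 at 3 h. The sign changed for 6 genes at 3 h, 1 of them called (Mrpl14, from 0.13 to -0.10). The medians without the trend were -0.03, -0.11 and -0.20 at 3, 24 and 72 h.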

How the data were processed

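Transcriptome libraries of 4 groups, each with 4 mice told apart by hashtag antibodies, were used. According to the study's methods and the submitters' processing notes, the authors aligned the reads with Cell Ranger 3.1.0 against the mm10 build and demultiplexed the hashtags in Seurat. Raw UMI counts for every gene in every cell were deposited, with a table of cell annotations by the authors that holds the hashtag call of each barcode. No p-value or fold change of the authors was used.

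Cells with a hashtag call other than Doublet or Negative, at most 5% of UMIs from mitochondrially encoded genes and at least 700 detected genes were kept. Cells of 2 mice in 1 droplet had been removed in this way, while doublets within a mouse remained and no other doublet caller was run. Counts were summed per mouse, tested with edgeR 4.0.16 (limma 3.58.1, R 4.3.3) by the quasi-likelihood F test with filterByExpr and TMM factors over all tested genes, and adjusted by the Benjamini-Hochberg method. Mice are separate animals, but the 4 mice of a group share a library, so that the p-values measure the spread between mice within libraries. CPM were computed from the same TMM-scaled totals. Classes came from Leiden clusters of the control cells (scanpy 1.11.5, leidenalg 0.10.2, 500 variable genes, 10 principal components, 15 neighbours, resolution 0.8), without the genes described here, and were passed to the treated cells after a correction between libraries. Without the correction 93.3%, 96.1% and 94.6% of the cells at 3, 24 and 72 h had the same class. Clusters 7 and 9 stayed unnamed.

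The genes and lists were chosen with earlier results of these data known. Named genes were the 5 largest rises and falls in each whole-compartment comparison among genes past the threshold with every mouse in that direction, the largest rise and fall per class and time, the first 2 of each interaction, a set list by function (Mrpl3, the stalk genes, Mrpl33, Mrpl45, Mrpl58, Mrps12, Mrps18a to Mrps18c and Mrps21) and any gene too low to test. Other genes, such as the members of short lists of calls and the ends of a range, were named after their values were seen. Gene positions are from GENCODE vM21 on GRCm38, promoter sequences from RefSeq on GRCm38.p6, and the length trend was a lowess fit (statsmodels 0.14.6) with a fraction of 0.3. On simulated counts for 3 h against control over 12042 genes, the test found 73 of 82 genes changed 1.5-fold, 49 of 55 changed 2-fold and 63 of 63 changed 4-fold, and called 9 of 11842 unchanged genes. The simulation held no change below 1.5-fold and no difference between libraries. It therefore does not cover the smaller changes that make up most of those reported here, or the sharing of a library within a group. Alternatives were other tests (DESeq2 1.42.0, a likelihood ratio test), scalings, filters, labels, thinned cells and leaving out each mouse.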

Additional observations from a re-analysis of the deposited data

Results flagged for a closer look

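In the HSC-like class at 3 h, the summed share of the 77 genes was 0.691% in mouse 2, apart from the other mice of that group. Mrpl33 at 72 h was at 348 CPM in mouse 3, while the others lay between 321 and 325 CPM. Mrpl49 at 72 h was at 48.9 CPM in mouse 3, while the others lay between 47.6 and 47.7 CPM. These were 3 groups of 137 looked at for a sample standing apart, and chance gives about 1 in 20.

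The change at 3 h differed between erythroid progenitor-like and HSC-like cells in 5 genes by the edgeR interaction test. The differences on the log2 scale were -0.65 for Mrpl20, -0.48 for Mrpl54, -0.52 for Mrpl35, -0.56 for Mrpl16 and -0.40 for Mrps24. Between myeloid progenitor-like and HSC-like cells they were -0.42 for Mrpl14, -0.40 for Mrpl51, -0.33 for Mrpl30 and -0.44 for Mrpl41, none of which was called with library size alone.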

How the results depend on the processing

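Counts are of genes called among the 76, in the order 3, 24 and 72 h. Shares of all genes stand above with the main counts and with most counts of library size alone, and are not given for the other alternatives. With cells thinned to 2000 UMIs, which leaves 10.1% of the UMIs, the whole compartment gave 10, 4 and 12 calls, 24 h against 3 h gave 9 and 72 h against 24 h gave 0; the classes gave 4, 2 and 2 (HSC-like), 3, 1 and 1 (LMPP-like), 5, 0 and 1 (myeloid), 1, 2 and 2 (erythroid) and 2, 0 and 1 (MK). With a change above 2-fold also asked for, every count was 0 but the myeloid one at 3 h, which was 1. Library size alone gave 55 at 3 h in the whole compartment, 7 at 72 h in HSC-like, 11 at 72 h in LMPP-like, 22 at 24 h and 32 at 72 h in myeloid and 42, 13 and 23 in erythroid cells, and 0 myeloid interactions. DESeq2 gave 10 in HSC-like cells at 3 h, and 7 and 10 in myeloid cells at 24 and 72 h. One cluster alone gave 16 and 7 in myeloid cells at 3 and 24 h, and 6, 1 and 5 in erythroid cells. Labels without correction gave 1 myeloid interaction. The share ratio was 0.971, 0.955 and 0.924 at the control makeup of classes and 0.958 at 24 h as a median over cells, and 0.978, 0.968 and 0.947 without cytosolic ribosomal protein and mitochondrially encoded genes in the total. Thinning left fewer UMIs, with the same number in each cell, and 1 cluster held fewer cells than its class. The cause of these moves was not tested. The alternatives by cluster and by control makeup were chosen after seeing the data.

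Leaving out 1 mouse gave 26 to 31, 25 to 36 and 51 to 63 calls in the whole compartment, 22 to 33 for 24 h against 3 h and 8 to 21 for 72 h against 24 h. It gave 10 to 18, 2 to 5 and 4 to 5 in HSC-like, 9 to 11, 2 to 2 and 5 to 7 in LMPP-like, 19 to 29, 7 to 14 and 10 to 20 in myeloid, 9 to 15, 1 to 12 and 2 to 17 in erythroid and 5 to 9, 2 to 3 and 2 to 7 in MK cells. Interactions ranged from 0 to 5 in myeloid and 1 to 14 in erythroid cells and stayed at 0 in LMPP-like and MK cells. Share ratios ranged from 0.922 to 0.939, 0.935 to 0.950 and 0.893 to 0.908.

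Hashtag numbers mark the antibody and were not taken as pairs in the main fit. Same-numbered mice of different groups correlated between -0.13 and 0.21 (24 pairs, median 0.06), others between -0.29 and 0.27 (72 pairs, median -0.01). For 3 of 16 mice, the best match in every other group had the same number. Whether the numbers pair the mice was not tested. With the number as a replicate block, the whole compartment gave 30, 34 and 60 calls, and MK cells 4 in place of 7 at 72 h, the one count that moved by over 1.5 times.

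Single named values changed sign. In thinned cells 4 called falls turned, namely Mrps34 for 72 h against 24 h (from -0.20 to 0.026), Mrpl22 in LMPP-like cells at 72 h (from -0.44 to 0.044) and Mrpl10 at 24 and 72 h (from -0.13 to 0.084 and from -0.17 to 0.117), and of values that had not been called, Mrpl10 at 3 h (0.043), Mrpl11 (0.060 and 0.097 at 3 and 24 h), Mrpl3 at 3 h (-0.012) and Mrpl45 at 24 h (-0.0044). Library size alone gave -0.130 for Mrpl3 and -0.108 for Mrps18b at 3 h and -0.0071 for Mrpl45 at 24 h, and removing the length trend -0.011 for Mrpl45 at 24 h. Leaving out 1 mouse gave -0.024 to 0.082 for Mrpl3 at 3 h, -0.017 to 0.027 for Mrpl45 at 24 h, -0.018 to 0.082 for Mrps18b at 3 h and -0.042 to 0.00032 for Mrps18c at 72 h. The cause was not tested. Control mouse 4 had the least UMIs and is missing from 3 classes, which limits what the controls of these classes show.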
